A study of Rattus norvegicus with 12 samples.

Results

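Rat cardiac fibroblasts that had been taken through viral Sall4 and Gata4 and then kept in a cardiomyocyte differentiation medium were compared with the untreated fibroblasts they came from. The comparison used 6 of the 12 libraries of the study, 3 of differentiated cells (GS_diff1) and 3 of parental fibroblasts (RCF), and 14399 of the 32545 genes in the count table passed the filter on low counts and were tested. The 6 libraries were taken by their labels alone. RCF were primary rat heart fibroblasts of wild-type genotype, not treated by their own labels, and served as the control, although a protocol field shared by all samples names the viral factors. GS were immortalized cells derived from such fibroblasts, not differentiated, and were used here only to say which differences from RCF were already there before differentiation. GS_diff1 were GS cells treated for cardiomyocyte differentiation in CMM medium, so they differed from RCF in the factors, the immortalization and the medium together, and these 3 cannot be told apart in this comparison. The vector and its promoter, the time in culture, the strain, age and number of the rats, and whether GS cells descend from a single clone are not stated in the labels.

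Cardiac fibroblasts make the collagen-rich matrix of the heart and can turn into contractile myofibroblasts after injury. Sall4 is a zinc finger protein that helps to maintain embryonic stem cells, whereas Gata4 binds GATA motifs and is needed for the heart and the endoderm to form. A cardiomyocyte is recognised by its sarcomere, the ordered array of myosin, actin, troponin and titin, and by the calcium channels and pumps that drive its beat.

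Libraries held 17241662 to 23117864 counts in the groups compared, and in each of them 16399 to 16644 genes were detected with 1 count or more. The deposited values were read counts per gene, and levels below are CPM, reads of a gene per 1000000 counts of its library after TMM factors (edgeR's correction for library composition). In a principal component analysis of all 12 libraries the first 3 components held 56.4%, 22.4% and 14.3% of the variance, and no library stood apart from its group. Fold changes are log2 values of GS_diff1 over RCF with the standard error (SE), n = 3 a group, and adjusted p-values are those of edgeR's quasi-likelihood test with Benjamini-Hochberg adjustment over all tested genes. A gene was called at an adjusted p under 0.05. The p-values measure the spread between libraries that the design text calls biological replicates. Since the RNA came from whole cultures, fewer cells of a type and less RNA per cell cannot be told apart.

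Sall4 and Gata4 followed the labels. Sall4 (chromosome 3, 165520392 to 165537940 in the table's positions, which match build Rnor_6.0) had 0 CPM in every RCF library and 224, 222 and 231 CPM in the GS_diff1 libraries, at least 1600-fold higher (adjusted p = 3.12e-34). Gata4 (chromosome 15, 46386712 to 46432965) had 203, 206 and 210 CPM in RCF and 487, 498 and 500 CPM in GS_diff1, a log2 fold change of 1.26 ± 0.03 (SE, adjusted p = 4.48e-26). Both stood within 2-fold of their GS levels, 246 ± 8.58 CPM for Sall4 and 595 ± 7.21 CPM for Gata4 (SD, n = 3). Reads of the viral and the endogenous copies are not separated in the table.

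Most markers of fibroblasts were still expressed in the differentiated cells, and those of mature cardiomyocytes were low or absent. The summed level of 12 fibroblast markers was 42016 to 45151 CPM in RCF and 50965 to 52430 CPM in GS_diff1, and 10 of the 12 reached 1 CPM in GS_diff1, all but decorin (Dcn) and Tcf21. Col1a1 made up most of that sum, and without it the range was 14243 to 16555 CPM in RCF and 16507 to 17591 CPM in GS_diff1, with 5 of the 12 called higher and 6 lower. The 9 cardiomyocyte markers in the table summed to 15.5 to 17.1 CPM in RCF, 2.64 to 2.89 CPM in GS and 11 to 13 CPM in GS_diff1. Tnnt2 carried that sum, and the other 8 together had 0.994 to 1.14 CPM in RCF and 4.03 to 4.42 CPM in GS_diff1. Of the 9 markers, 3 were called higher and 1 lower in GS_diff1 than in RCF. Myl2, the ventricular regulatory light chain, had 0 counts in all libraries of the 3 groups, and Myh7, the slow cardiac myosin heavy chain, had 0 counts in RCF and GS and 0.235 ± 0.103 CPM (SD, n = 3) in GS_diff1. The 6 epithelial markers summed to 0.845 to 1.39 CPM in RCF and to 2372 to 2392 CPM in GS_diff1, and the 6 leukocyte markers to 53.5 to 53.6 and 16.5 to 17.5 CPM, with Ptprc, Itgam and Adgre1 at 0 in GS_diff1. Cd14 made up most of the leukocyte sum in GS_diff1, at 14.1 CPM against 17.3 CPM in RCF.

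Differentiated cells and parental fibroblasts differed over most of the transcriptome. Of the 14399 tested genes 10858 were called (75.4%), 5476 higher (38.0%) and 5382 lower (37.4%) in GS_diff1, with a median log2 fold change of 0.0065 over all tested genes. At 2-fold or more, 4695 were called (32.6%), 2406 higher (16.7%) and 2289 lower (15.9%). Differences of 10-fold or more were called for 771 genes higher and 418 lower. The libraries of the groups did not overlap for 11207 genes (77.8%). A count of called genes is therefore read below against shares of 38.0% and 37.4%.

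The largest rises were of genes that the fibroblasts did not express. Krt18, a keratin of simple epithelia (chromosome 7, 143629455 to 143633131), had 0 CPM in each RCF library, 165, 159 and 159 CPM in GS, and 727, 729 and 723 CPM in GS_diff1. It was at least 5157-fold higher in GS_diff1 than in RCF (adjusted p = 1.64e-38), and its GS libraries lay between those of the other groups. Sox17, a transcription factor of endoderm and endothelium, was at 0 in RCF, at 720, 695 and 715 CPM in GS, and at 334, 329 and 329 CPM in GS_diff1, at least 2347-fold over RCF (adjusted p = 1.61e-36). Lin28a, the RNA-binding protein that blocks let-7 maturation, was likewise at 0 in RCF and reached 254, 264 and 262 CPM in GS_diff1, at least 1848-fold higher (adjusted p = 1.29e-33). The remaining genes at the top were Nup62cl, the anchoring filament protein gene Lad1, the tight junction gene Cldn6, the homeobox gene Pitx1, the cardiac myosin-binding protein gene Mybpc3, Aim1l and the tenascin gene Tnn. Tnn stood at 0.107 ± 0.0485 CPM in RCF and 1187 ± 3.77 CPM in GS_diff1 (SD, n = 3). In all, 34 genes had no count in RCF and at least 10 CPM in GS_diff1, and 3 genes the reverse.

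A microRNA gene was among them. Mir675, whose hairpin lies in the first exon of the imprinted RNA H19 (chromosome 1, 215745981 to 215746064), had 0 CPM in RCF, 38.5, 37.4 and 38.6 CPM in GS, and 549, 531 and 616 CPM in GS_diff1, at least 4012-fold over RCF (adjusted p = 4.92e-25). H19 itself was not matched to a row, and its reads over the locus cannot be told apart from those of the hairpin. The count is of reads from libraries of total RNA over the hairpin locus, and does not measure the mature arms, which are shown because the seed, in capitals, is what pairs with target messages. Their sequences are those of RefSeq (build GRCr8, chromosome 1, minus strand).
rno-miR-675-5p: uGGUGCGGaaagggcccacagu
rno-miR-675-3p: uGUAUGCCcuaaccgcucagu
The seeds of the arms differ, so they form separate seed families.

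The largest falls ended at or near 0 in GS_diff1. Lyz2, the lysozyme of macrophages, had 52.6, 56.9 and 57.9 CPM in RCF and 0 in each GS_diff1 library, at least 358-fold lower (adjusted p = 4.63e-19). C7, a component of the terminal complement pore, had 55.4, 52.6 and 53.2 CPM in RCF and no count in GS or GS_diff1, at least 345-fold lower (adjusted p = 2.88e-22). Adgre1, the macrophage surface protein F4/80, had 15.4, 13.5 and 14.1 CPM in RCF and none in GS or GS_diff1, at least 91.9-fold lower (adjusted p = 6.12e-16). Akr1cl, an aldo-keto reductase gene, went from 349 ± 1.22 CPM in RCF through 47.4 ± 2.23 CPM in GS to 0.784 ± 0.23 CPM in GS_diff1 (SD, n = 3). The other large falls were Cthrc1, Aox4, the atypical chemokine receptor gene Ackr4, the phagocyte oxidase gene Cybb, Dcn, Igfbp6, Adgrd1 and Aldh3a1. Of the 6 leukocyte markers, all 6 were lower in GS_diff1, and their part in the falls of immune genes was not tested.

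GS was used to place each of the 4695 differences of 2-fold or more. For 1944 (41.4%) the difference was already there in GS at 2-fold or more and GS_diff1 lay within 2-fold of GS, for 497 (10.6%) it was there and grew by 2-fold or more in GS_diff1, and for 248 (5.28%) it was there and shrank by as much, where 18.2% of tested genes differed by 2-fold or more between GS_diff1 and GS. For 1949 (41.5%) GS was not called different from RCF at 2-fold, and for 57 (1.21%) GS differed from RCF in the opposite direction. Falls outnumbered rises among differences not there in GS, 1116 against 833, while rises outnumbered falls among those already there, 1123 against 821. Of the 3733 genes called at 2-fold or more in GS against RCF (25.9%), 2689 (72.0%) were kept in GS_diff1, 732 (19.6%) met the rule of no other class, 255 (6.83%) had returned (the 95% interval of the difference from RCF lay within 2-fold, and GS_diff1 differed from GS by 2-fold or more), and the same 57 (1.53%) had crossed over. The comparisons share libraries, so these are counts and not tests, and they move with the threshold: with a difference of 1.5-fold taken as already there, 1227 genes in place of 1949 were not there in GS.

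**Figure D1:**
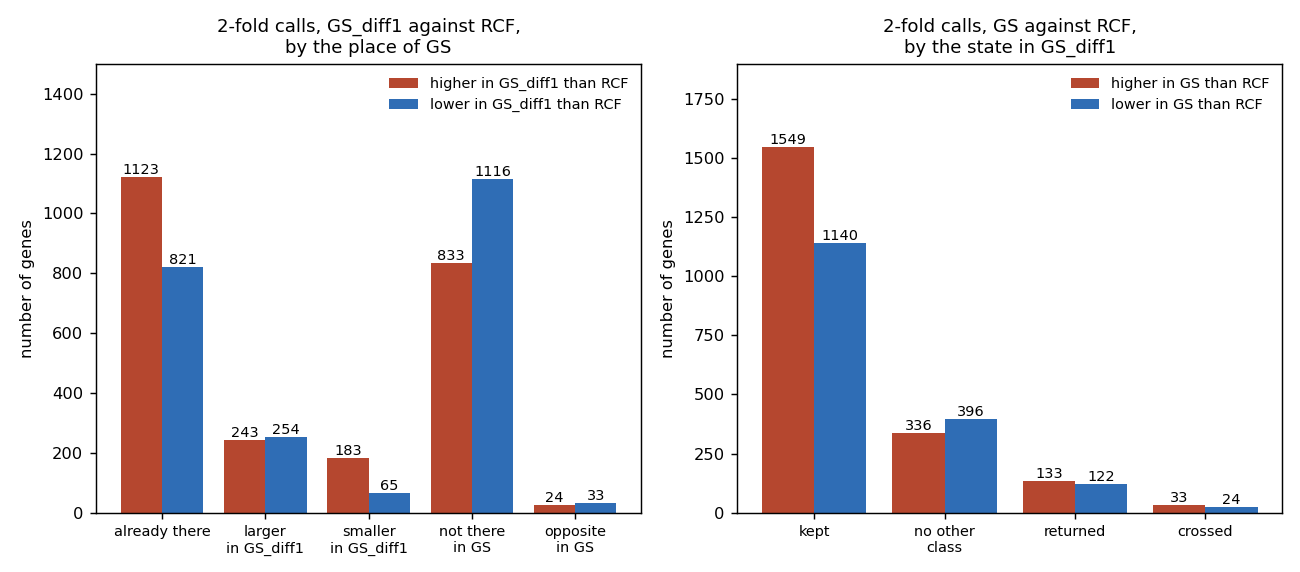
Number of genes (vertical axes, from 0) called at 2-fold or more in GS_diff1 against RCF by the place of GS (left), and called in GS against RCF by the state in GS_diff1 (right, where no other class holds the genes that met no rule), split by direction. The pair of tall classes on the left, already there (1123 higher, 821 lower) and not there in GS (833 higher, 1116 lower), have opposite balances of higher and lower genes.

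**Figure D2:**
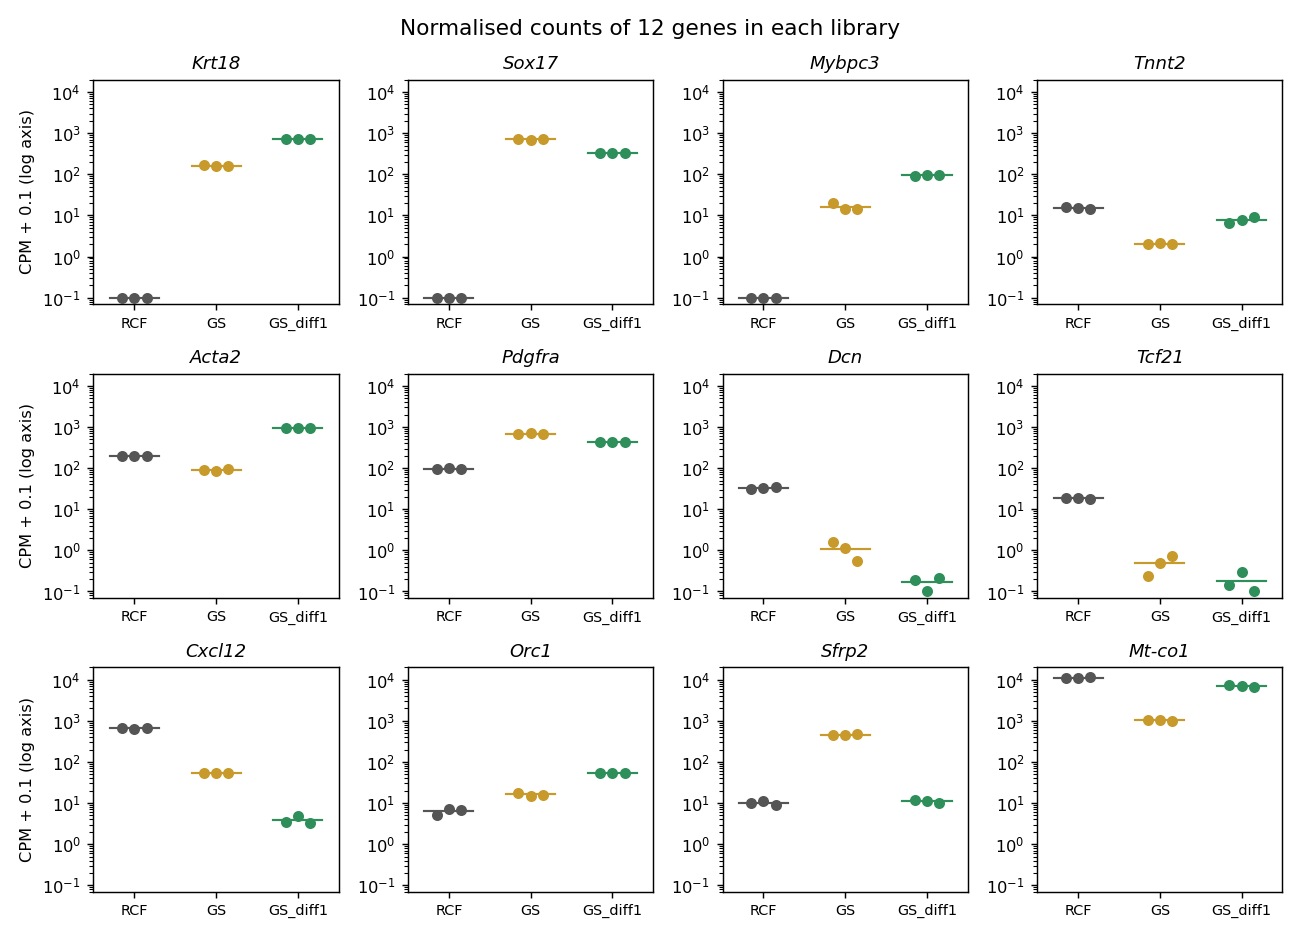
Normalised counts of 12 genes in each library, as CPM + 0.1 on a log axis, with 3 points a group and a line at the group mean. Krt18, Sox17 and Mybpc3 were at 0 in all RCF libraries, Sfrp2 was high in GS only, and Mt-co1 was low in GS only.

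Genes of the sarcomere changed in both directions and mostly from very low levels. The list holds 27 genes that are in the data, of which 21 passed the filter; 14 were called higher and 6 lower in GS_diff1 than in RCF, and the median log2 fold change was 2.08. Because a gene at 0 in RCF is tested only when another group expresses it, such counts describe the tested members and not the whole list. Mybpc3 had 0 CPM in RCF, 19.8, 14.5 and 14.0 CPM in GS, and 92.3, 98.5 and 96.1 CPM in GS_diff1, at least 679-fold over RCF (adjusted p = 3.03e-15). Tnnc1, the troponin C of heart and slow muscle, had 0.211, 0.462 and 0.284 CPM in RCF and 107, 119 and 112 CPM in GS_diff1, a log2 fold change of 8.47 ± 0.13 (SE, adjusted p = 8.15e-31). The slow skeletal troponin I gene Tnni1, the form of the embryonic heart, was at 0 in RCF and at 9.13, 7.56 and 9.74 CPM in GS_diff1. For these 3 genes the libraries of all 3 groups were fully separated with GS in the middle, where Tnni1 had a mean of 0.536 CPM.

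Other sarcomere genes gave a different picture. Myl3, the ventricular essential light chain, stood at 53.6 ± 2.97 CPM in GS and 55.7 ± 1.11 CPM in GS_diff1 against 0.0158 ± 0.0273 CPM in RCF (SD, n = 3). Myh7b rose from 4.58 to 85.4 CPM and Tpm1 from 288 to 947 CPM. Myh6 and Actc1, the fast cardiac myosin and cardiac actin, were called higher but reached only 0.758 and 1.75 CPM, and Tnni3, the adult cardiac troponin I, was not called (log2 fold change -0.49 ± 0.54, adjusted p = 0.42). Tnnt2, cardiac troponin T, was lower, at 15.1 CPM in RCF, 1.96 in GS and 7.67 in GS_diff1. Cryab, a small heat shock protein abundant in muscle, fell from 1311 ± 11.4 to 181 ± 7.31 CPM, and desmin (Des) from 1.03 to 0.108 CPM. Tcap and Myl2 had no counts, and Csrp3, Myom2 and Xirp1 had none in GS_diff1.

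Calcium handling and cardiac transcription factor genes were also split. Of 17 tested genes of calcium handling and excitation, 9 were called higher and 6 lower (median log2 fold change 0.27). Pln, phospholamban, the brake on the calcium pump of the sarcoplasmic reticulum, rose from 0.182 ± 0.0757 to 4.84 ± 0.795 CPM, and the stretch-induced natriuretic peptide gene Nppb from 0.652 ± 0.299 to 15.6 ± 1.48 CPM. The sodium-calcium exchanger gene Slc8a1 fell from 92.4 ± 2.95 to 19.2 ± 1.18 CPM, and Cacna1c, the pore of the L-type calcium channel, was not called, at 9.75 ± 0.472 and 7.9 ± 1.67 CPM (SD, n = 3), but was lower without GS_diff1 replicate 2 (-0.46, adjusted p = 0.0416). Of 24 tested cardiac factors and progenitor genes, 17 were higher, the viral factor Gata4 among them, and 7 lower (median 1.30). Nkx2-5, an early cardiac homeobox factor, was at 0 in RCF and at 2.57, 3.53 and 2.03 CPM in GS_diff1, at least 19.2-fold higher (adjusted p = 2.47e-12). Hand1 rose from 0.0315 to 6.92 CPM, while Tbx5, Tbx20 and Tbx18, T-box factors of the heart and its epicardium, were lower, Tbx20 falling from 33.3 ± 3.47 to 7.12 ± 0.556 CPM.

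The contractile genes of smooth muscle and myofibroblasts rose in part. Of 23 tested, 14 were called higher, 7 at 2-fold or more, and 7 lower, with a median log2 fold change of 0.45, where the median of the same genes in GS against RCF was -0.45. Acta2, smooth muscle actin, had 195, 202 and 197 CPM in RCF, 87.8, 83.9 and 93.5 CPM in GS, and 964, 973 and 946 CPM in GS_diff1, a log2 fold change of 2.28 ± 0.04 (SE, adjusted p = 2.48e-24). It was thus below RCF in GS and above it after differentiation, in all 3 libraries each. Calponin (Cnn1), smoothelin (Smtn) and leiomodin (Lmod1) rose to 14.5, 428 and 21.9 CPM from 1.52, 79.5 and 6.07 CPM. Myocardin (Myocd), the coactivator that turns on smooth muscle and cardiac genes with Srf, had 0.127, 0 and 0 CPM in RCF and 10.7, 11 and 9.68 CPM in GS_diff1, and Srf rose by 0.99 on the log2 scale. Myh11, the smooth muscle myosin heavy chain, was not called (log2 fold change -0.42 ± 0.25, adjusted p = 0.13), though it was without GS_diff1 replicate 2 (-0.74, adjusted p = 0.0164), and the myosin light chain kinase gene Mylk fell from 29.6 ± 1 to 4.49 ± 0.439 CPM.

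Genes of fibroblast identity were divided between losses and gains. Of 25 tested, 15 were lower, 8 at 2-fold or more, and 8 higher (median log2 fold change -0.45). Tcf21, a transcription factor of fibroblast and epicardial progenitors, had 19, 18.6 and 17.9 CPM in RCF and 0.0476, 0.202 and 0 CPM in GS_diff1 (-7.65 ± 0.50, SE, adjusted p = 4.38e-09). Dcn, a collagen-binding proteoglycan gene, fell from 31.1, 33.2 and 34.1 CPM to 0.0951, 0 and 0.116 CPM (-8.77 ± 0.57, SE, adjusted p = 1.09e-07). Pdgfra and Pdgfrb, the platelet-derived growth factor receptors of mesenchymal cells, moved apart: Pdgfra had 96.2, 103 and 92.8 CPM in RCF and 442, 436 and 434 CPM in GS_diff1, while Pdgfrb fell from 905 to 208 CPM. Nt5e and endoglin (Eng), surface proteins used to define mesenchymal stromal cells, fell from 129 ± 5.24 to 5.82 ± 0.336 CPM and from 487 ± 5.45 to 89.2 ± 1.65 CPM. Periostin (Postn), a matrix protein of activated fibroblasts, rose from 233 ± 3.05 to 698 ± 8.81 CPM although it was at 99 ± 3.46 CPM in GS. Vim, the intermediate filament gene of mesenchymal cells, stood at 5069 and 4748 CPM, a called but small fall of 0.09 on the log2 scale.

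**Figure D3:**
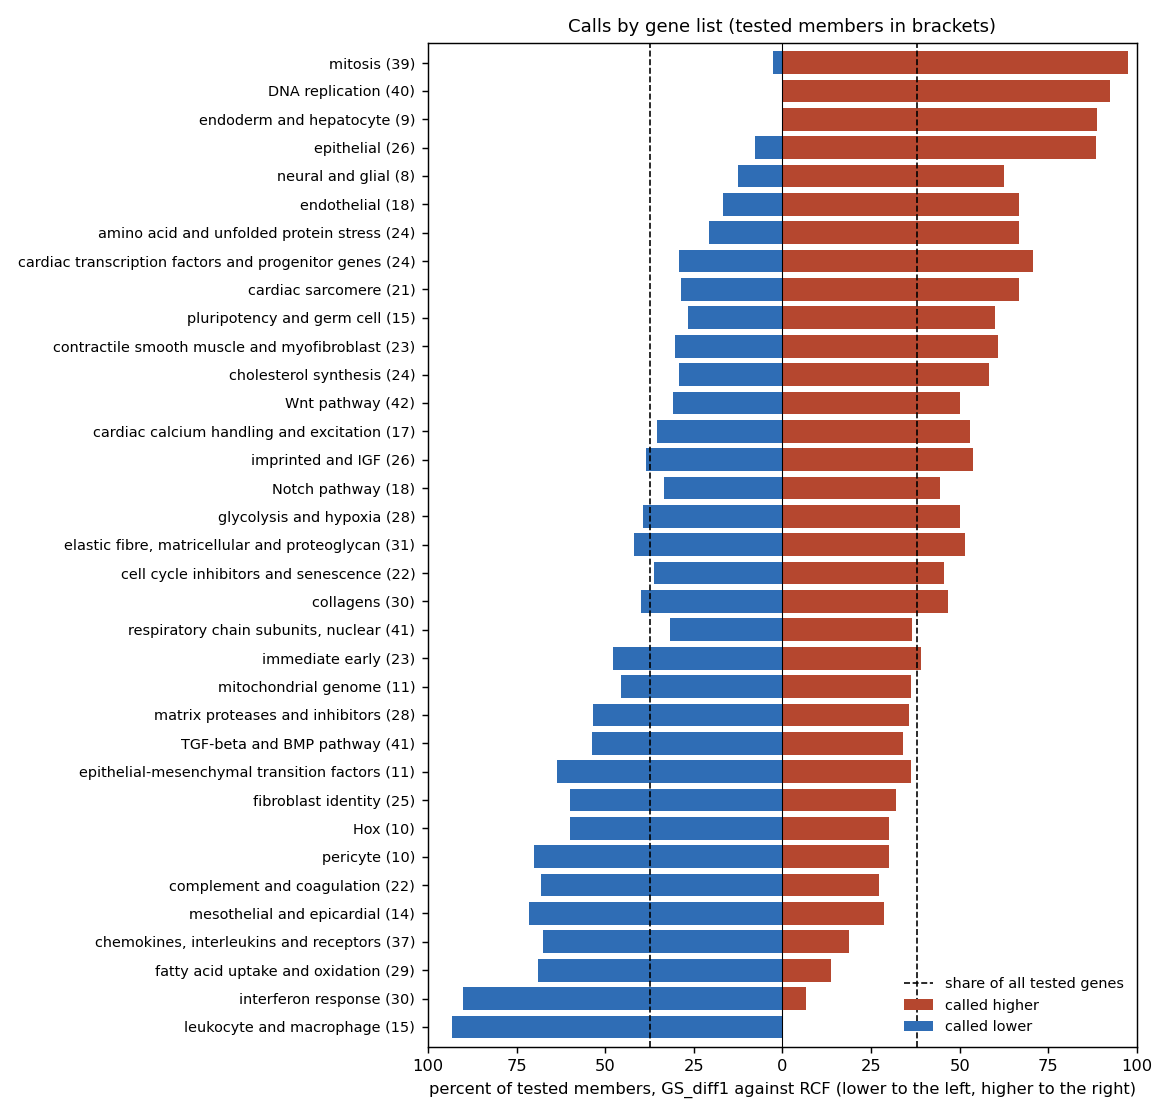
Percent of the tested members of each gene list called lower (left) and higher (right) in GS_diff1 than in RCF, with the number tested in brackets and dashed lines at the shares over all tested genes, 37.4% lower and 38.0% higher. Mitosis and DNA replication are at one end with 38 of 39 and 37 of 40 higher, and leukocyte and interferon genes at the other with 14 of 15 and 27 of 30 lower.

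The matrix genes were divided between rises and falls, as were all tested genes (38.0% higher and 37.4% lower). Of 30 tested collagen genes 14 were higher and 12 lower (median 0.03), of 31 genes of elastic fibres, matricellular proteins and proteoglycans 16 were higher and 13 lower (median 0.18), and of 28 proteases and inhibitors 10 were higher and 15 lower (median -0.89). Col11a1, a fibrillar collagen that nucleates thin fibrils, had 123, 121 and 120 CPM in RCF, 943, 988 and 942 CPM in GS, and 2999, 3016 and 3154 CPM in GS_diff1 (4.66 ± 0.03, SE, adjusted p = 1.2e-39). The glycoprotein gene Tnc, tenascin C of embryonic and healing matrix, rose from 124 ± 1.29 to 2376 ± 8.03 CPM, and Acan, the cartilage proteoglycan aggrecan, from 0.348 ± 0.131 to 97.8 ± 4.42 CPM. Both were larger than in GS by 2-fold or more. Lama1, a laminin chain of the embryonic basement membrane, had 4.09 ± 0.0319 CPM in RCF, 11847 ± 627 CPM in GS and 3731 ± 48.6 CPM in GS_diff1, so that the difference shrank but stayed large. Col4a4 of the basement membrane fell from 44.2 ± 0.286 to 1.27 ± 0.121 CPM and Spon1 from 143 ± 5.33 to 0.7 ± 0.199 CPM. Col1a2 was not called (-0.61 ± 0.42, SE, adjusted p = 0.224), with 4404, 2668 and 2202 CPM in RCF and 2804, 2002 and 1272 CPM in GS_diff1, a spread between replicates wider than that of the other collagens named here. Among proteases Mmp15 rose from 4.05 to 97.4 CPM, and Mmp12 of macrophages was at 7.14 ± 0.315 CPM in RCF and at 0 in GS and GS_diff1.

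Most tested epithelial and endodermal genes were higher in GS_diff1, and in both lists most of these differed already in GS. Of 26 tested epithelial genes 23 were higher, all 23 at 2-fold or more, and 2 lower. Of those called at 2-fold or more in either direction, the desmosomal gene Dsp alone did not differ by 2-fold in GS. The splicing regulator Esrp1 was at 0 in RCF, at 67.6 ± 2.19 CPM in GS and at 31.1 ± 1.11 CPM in GS_diff1, at least 221-fold over RCF (adjusted p = 3.7e-26), and the desmosomal plakophilin gene Pkp3 at 0 and 27.9 ± 2.08 CPM. Of 22 genes of endoderm and liver in the data, 13 did not pass the filter. Of the 9 tested, 8 were higher and none lower by edgeR's quasi-likelihood test. The count of lower genes was also 0 at an unadjusted p under 0.05 and 0 by DESeq2 or limma-voom. However, 1 more gene was tested and lower without RCF replicate 1, without any 1 of the GS_diff1 replicates, or with no filter on low counts. In the data 8 endoderm and 11 epithelial genes had no count in RCF. Such genes pass the filter only through another group and cannot be called lower, so these counts describe the tested members only. Hnf4a, a nuclear receptor of liver and gut epithelium, had 0 CPM in RCF, 1.15, 2.55 and 1.87 CPM in GS, and 26.4, 26.4 and 25.4 CPM in GS_diff1, at least 185-fold over RCF (adjusted p = 5.92e-19). Alb, the albumin gene, had no count in any of the 9 libraries. The factors that drive epithelial cells toward mesenchyme were not lost together: of 11 tested, 7 were lower and 4 higher, Zeb2 falling from 110 ± 1.63 to 33.4 ± 3.51 CPM and Snai2 rising from 8.77 ± 0.459 to 75.7 ± 3.59 CPM. Of 14 tested mesothelial and epicardial genes 10 were lower, with Bnc1 at 2.06 ± 0.41 CPM in RCF and 0 in GS_diff1, and 4 were higher. The mesothelial surface protein gene Msln rose from 2.77 ± 0.704 to 7.58 ± 0.379 CPM and Aldh1a1 from 0.124 ± 0.18 to 1.43 ± 0.641 CPM.

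Endothelial, pericyte, pluripotency and neural genes gave smaller or mixed sets. Of 18 tested endothelial genes 12 were higher and 3 lower, and 5 were lower without RCF replicate 2 or without GS_diff1 replicate 2 or 3. Flt1, a receptor for vascular endothelial growth factor, rose from 14.0, 14.8 and 14.3 to 335, 324 and 333 CPM, and the endothelial factor Erg from 0 to 5.94, 5.9 and 6.38 CPM. Cdh5, the cadherin of endothelial junctions, had no count in GS_diff1. Of 10 tested pericyte genes 7 were lower and 3 higher. The proteoglycan gene Cspg4 rose from 38.7 ± 2.15 to 147 ± 6.05 CPM, Ndufa4l2 from 1.47 ± 0.321 to 9.32 ± 0.912 CPM and Mcam from 4.56 ± 1.27 to 9.53 ± 1.87 CPM. Abcc9 and Kcnj8, the subunits of the ATP-sensitive potassium channel of pericytes and smooth muscle, fell from 11.9 ± 0.409 to 0.604 ± 0.287 CPM and from 15.1 ± 0.642 to 0.158 ± 0.095 CPM, and Abcc9 had not been lower in GS, at 19.3 ± 2.92 CPM (SD, n = 3). Of 15 tested pluripotency and germ cell genes 9 were higher, the viral factor Sall4 among them, and 4 lower. Nanog had no count in any of the 9 libraries, and Sall1 reached 95.9 ± 4.94 CPM from 0.0141 ± 0.0244 CPM. Of 8 tested neural and glial genes 5 were higher, and Tubb3, a tubulin of neurons, fell from 59.3 ± 0.627 to 3.39 ± 0.66 CPM. Not tested were 9 of 27 endothelial, 14 of 29 pluripotency and 12 of 20 neural genes in the data. In the same lists 5, 12 and 4 genes had no count in RCF. Such genes pass the filter only through another group and cannot be called lower, so these counts describe the tested members only.

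Genes of DNA replication and mitosis were higher in GS_diff1 than in the fibroblasts nearly throughout the tested lists, and most of them had not differed from RCF by 2-fold in GS. Of 40 replication genes 37 were called higher, 35 of them at 2-fold or more, and none lower by edgeR's quasi-likelihood test, 0 at an unadjusted p under 0.05, and 0 by DESeq2 or limma-voom (median log2 fold change 1.77, against 0.38 in GS). Of 39 mitotic genes 38 were higher, 34 at 2-fold or more, and 1, Cdc25b, was lower (median 1.47, against -0.21 in GS). In each list 30 genes fell in the class not there in GS at 2-fold. At any size, GS differed from RCF in 26 replication genes upward and 5 downward, and in 13 mitotic genes upward and 21 downward. Orc1, the largest subunit of the complex that marks replication origins, had 4.9, 6.88 and 6.62 CPM in RCF, 17.6, 14.8 and 15.7 CPM in GS, and 54.6, 54.4 and 54.5 CPM in GS_diff1 (3.16 ± 0.10, SE, adjusted p = 2.17e-22). Espl1, separase, which cuts the cohesin that holds sister chromatids, rose from 14.2, 13.3 and 13.3 to 82, 81.8 and 83.4 CPM (2.60 ± 0.07, SE, adjusted p = 1.07e-24). Ccnb1, the mitotic cyclin B1, and Plk1, a mitotic kinase, each rose by 1.91 on the log2 scale over RCF, where GS was higher by 0.42 for Ccnb1 and by 0.21 for Plk1. Mybl2, a factor that drives mitotic genes, rose from 15.2 ± 1.15 to 104 ± 5.92 CPM. Among the replication genes that were not called were E2f1 and Gins2, with log2 fold changes of 0.07 each.

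The promoters of these genes were searched for the elements through which such genes are known to be controlled, in the 250 bases before each gene's start on both strands. The table of RefSeq promoters (build GRCr8) held 9820 of the tested genes. The letters TTTGAA, the cell cycle homology region that keeps mitotic genes silent outside division, occurred in 14 of 32 mitotic promoters (43.8%), in 10.1% of those of all tested genes and in 16% of all 27456 promoters. The E2F forms TTTCCCGC and TTTGGCGC, which do not contain each other or TTTGAA, occurred in 3 and 5 of 32 replication promoters (9.38% and 15.6%), against 1.64% and 0.733% of tested genes. A match is a description of the letters and not a bound site. The promoters below, chosen after their values were seen, show the matches in capitals, written 5′ to 3′ on the gene's strand, for Cdk1 (chr20:19265043-19265292, plus strand), Top2a (chr10:84473094-84473343, minus strand), Mcm5 (chr19:13488563-13488812, plus strand) and Mcm7 (chr12:22163179-22163428, minus strand).
Cdk1: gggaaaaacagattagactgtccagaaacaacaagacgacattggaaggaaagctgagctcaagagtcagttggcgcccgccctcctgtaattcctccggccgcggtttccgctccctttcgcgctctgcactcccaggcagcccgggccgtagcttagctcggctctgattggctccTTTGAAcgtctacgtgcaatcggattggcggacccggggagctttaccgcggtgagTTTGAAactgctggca
Top2a: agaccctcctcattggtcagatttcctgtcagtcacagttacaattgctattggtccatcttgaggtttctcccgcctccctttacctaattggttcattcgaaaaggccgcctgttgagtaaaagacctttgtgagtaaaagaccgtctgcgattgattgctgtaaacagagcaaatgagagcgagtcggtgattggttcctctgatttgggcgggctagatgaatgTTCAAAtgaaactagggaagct
Mcm5: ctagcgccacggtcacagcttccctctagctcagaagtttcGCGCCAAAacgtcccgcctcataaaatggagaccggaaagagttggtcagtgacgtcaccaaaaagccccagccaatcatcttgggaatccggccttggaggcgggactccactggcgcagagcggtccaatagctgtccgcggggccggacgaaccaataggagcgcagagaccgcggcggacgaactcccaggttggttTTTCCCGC
Mcm7: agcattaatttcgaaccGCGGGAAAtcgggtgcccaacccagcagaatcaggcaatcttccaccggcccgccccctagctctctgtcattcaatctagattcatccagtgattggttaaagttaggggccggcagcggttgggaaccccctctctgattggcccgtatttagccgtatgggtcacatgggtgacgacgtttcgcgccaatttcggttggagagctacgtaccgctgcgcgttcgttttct
Cdk1, the kinase that starts mitosis, has TTTGAA at 2 places and had 50.8, 46 and 52.8 CPM in RCF and 119, 132 and 132 CPM in GS_diff1. Top2a, the topoisomerase that untangles chromosomes, has it once, on the other strand, and had 74.9, 72.7 and 78.3 CPM in RCF and 259, 251 and 247 CPM in GS_diff1. Mcm5 and Mcm7 are subunits of the replicative helicase. Mcm5 holds 1 match of each E2F form and rose from 20.6 ± 0.539 to 105 ± 3.84 CPM, and Mcm7 holds 1 match and rose from 28 ± 1.28 to 173 ± 2.7 CPM. For all 4 genes the groups did not overlap. The GATA letters AGATAA occurred in 5.79% of promoters of genes higher at 2-fold or more and 5.69% of those lower, close to the 5.48% of all tested genes. They occurred in 2 of 17 sarcomere promoters (11.8%), those of Tnnt2, which was lower in GS_diff1, and Tnni3, which was not called. Each E2F form occurred in 0 of 32 mitotic promoters, and the sterol element TCACNCCAC in 0 of 16 promoters of cholesterol synthesis. The CArG box (CC, 6 letters of A or T, then GG) occurred in 2 of 15 contractile promoters (13.3%) and in 1.22% of those of all tested genes. It also occurred in 2 of 17 sarcomere promoters (11.8%), those of Myl3, which was higher, and Ldb3, which was lower.

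Inhibitors of the cell cycle did not move with these lists. Of 22 tested genes of this kind 10 were higher and 8 lower (median 0.16). Cdkn1c, the imprinted inhibitor p57, had 0.0422, 0.0513 and 0.0473 CPM in RCF and 130, 134 and 146 CPM in GS_diff1 (11.33 ± 0.13, SE, adjusted p = 9.12e-34), and was already there in GS. Ccng2 and the retinoblastoma relative Rbl2, both tied to resting cells, fell from 67.7 ± 2.11 to 17.7 ± 1.14 CPM and from 56.7 ± 0.461 to 18.1 ± 1.94 CPM. Gas1, a growth arrest gene outside that list, fell from 161, 165 and 159 CPM in RCF to 6.09, 5.7 and 8.58 CPM in GS_diff1, and had stood at 113 ± 2.7 CPM in GS (SD, n = 3).

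**Figure D4:**
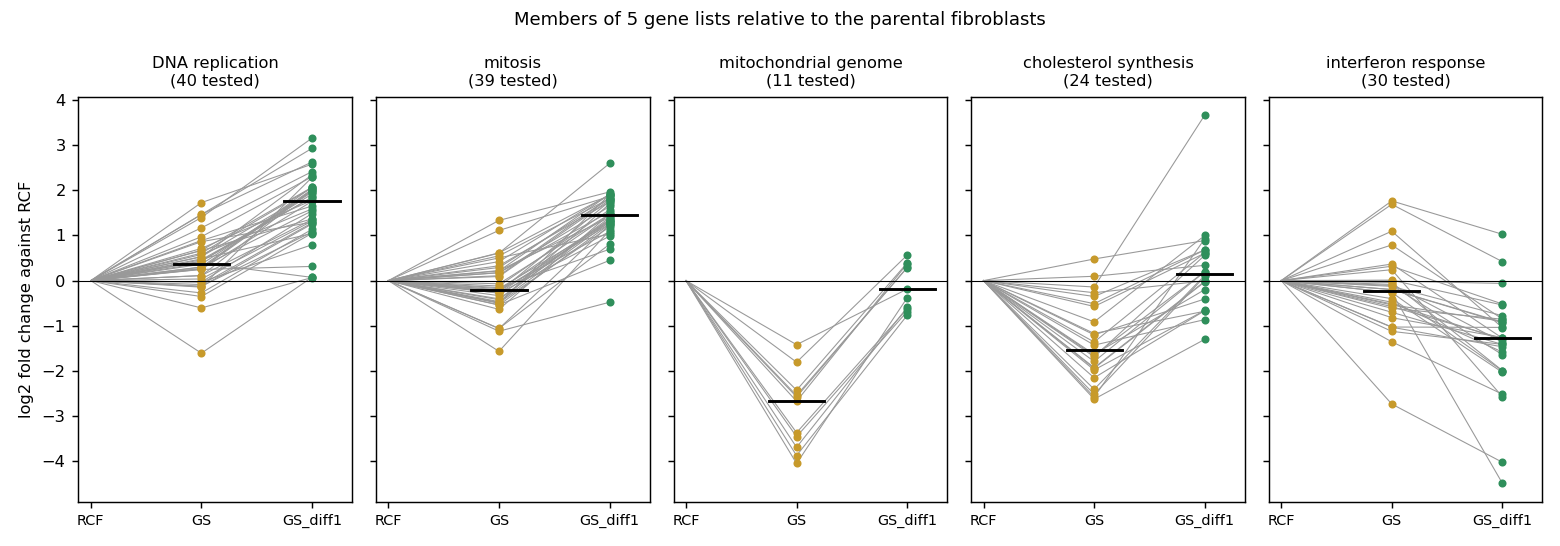
Log2 fold change against RCF (vertical axis, RCF set to 0) of every tested member of 5 gene lists in GS and in GS_diff1, with a grey line for each gene and a black bar at the list's median. Mitochondrial and cholesterol genes dipped in GS (medians -2.67 and -1.53) and were near RCF in GS_diff1 (-0.19 and 0.16), while replication and mitotic genes were higher in GS_diff1.

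Transcripts of the mitochondrial genome had returned toward the fibroblast level. They took 2.20%, 2.18% and 2.26% of all counts in RCF, 0.244%, 0.242% and 0.246% in GS, and 1.70%, 1.58% and 1.49% in GS_diff1, so the differentiated libraries lay near RCF but did not overlap with it. Of the 11 tested genes of the mitochondrial genome list 10 were classed as returned. In GS_diff1 against RCF 4 of the list were higher and 5 lower, none by 2-fold with edgeR (0 at an unadjusted p under 0.05, and 0 by DESeq2 or limma-voom). Outside the list, 1 mitochondrial ribosomal RNA gene and 1 mitochondrial transfer RNA gene were called at 2-fold or more in GS_diff1 against RCF. Mt-co1, a core subunit of cytochrome oxidase, had 11261, 11138 and 11491 CPM in RCF, 1045, 1035 and 1006 CPM in GS, and 7494, 6891 and 6698 CPM in GS_diff1 (-0.68 ± 0.03, SE, adjusted p = 1.81e-11). Mt-atp6 of the ATP synthase ended higher, at 1182 ± 81 CPM against 799 ± 21.1 CPM. The respiratory chain subunits encoded in the nucleus had no call of 2-fold or more by edgeR, 0 at an unadjusted p under 0.05 and 0 by DESeq2 or limma-voom in 41 tested genes, with 15 called higher and 13 lower at smaller sizes.

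Cholesterol synthesis genes were also low in GS and rose again, with 21 of 24 called lower in GS than in RCF and 24 called higher in GS_diff1 than in GS. A smaller part of them was classed as returned, and genes of fatty acid use did not rise again as a list. Of 24 tested cholesterol genes 11 were classed as returned, 14 were higher and 7 lower than in RCF, and 3 passed 2-fold. Idi1, an isomerase of the isoprenoid pathway, had 40.5, 41.1 and 41.2 CPM in RCF, 7.07, 7.23 and 6.12 CPM in GS, and 81.7, 76.5 and 75.5 CPM in GS_diff1 (0.93 ± 0.05, SE, adjusted p = 1.06e-15). Insig1, the sterol sensor that holds back the pathway, stood at 305 ± 0.74, 68.6 ± 2.04 and 192 ± 7.88 CPM in the same order. Of 29 tested genes of fatty acid uptake and oxidation 20 were lower and 4 higher (median -0.54). Lpl, lipoprotein lipase, had 208, 201 and 203 CPM in RCF and 4.23, 5.5 and 4.87 CPM in GS_diff1 (-5.39 ± 0.08, SE, adjusted p = 1.57e-30), and the gatekeeper of mitochondrial fatty acid import, Cpt1a, fell from 183 ± 2.03 to 50.3 ± 1.18 CPM. Fabp3, the fatty acid-binding protein of heart muscle, rose from 18.3 ± 1.98 to 274 ± 15.8 CPM. Glycolysis and hypoxia genes were split, 14 higher and 11 lower of 28, with Car9, a carbonic anhydrase induced by low oxygen, up from 2.89 ± 0.519 to 84.2 ± 1.93 CPM, and with Gapdh and Slc2a1 not called.

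Interferon, chemokine and complement genes were lower in the differentiated cells. Of 30 tested interferon response genes 27 were lower, 19 at 2-fold or more, and 2 were higher (median log2 fold change -1.28, against -0.23 in GS), and 13 were in the class not there in GS. Rsad2, an antiviral enzyme, had 17.5, 16.9 and 16.2 CPM in RCF, 13.3, 13.1 and 15.8 CPM in GS, and 0.19, 1.31 and 0.754 CPM in GS_diff1 (-4.49 ± 0.39, SE, adjusted p = 9.14e-07). Of 37 tested chemokines, interleukins and receptors 25 were lower and 7 higher (median -1.16). Cxcl12, the stromal chemokine that retains blood progenitors, had 655, 648 and 658 CPM in RCF, 52.9, 54.6 and 53.4 CPM in GS, and 3.28, 4.84 and 3.19 CPM in GS_diff1 (-7.43 ± 0.07, SE, adjusted p = 1.96e-30), falling at each comparison without overlap. Il1b and Ccl3 of macrophages, at 2.12 ± 0.547 and 1.46 ± 0.437 CPM in RCF, had no count in GS or GS_diff1. Of 22 tested complement and coagulation genes 15 were lower, with Serping1, the inhibitor of the first complement step, going from 55 ± 1.08 to 2.29 ± 0.265 CPM, and 6 were higher, with tissue factor (F3) going from 105 ± 4.62 to 327 ± 11.6 CPM. Of 15 tested leukocyte genes 14 were lower and none was higher by edgeR's quasi-likelihood test, with 0 at an unadjusted p under 0.05 and 0 by DESeq2 or limma-voom. Of the 24 leukocyte genes in the data 9 were not tested, and 13 had no count in GS_diff1. A gene at 0 in GS_diff1 cannot be called higher, so these counts describe the tested members only. The leukocyte markers given above fell alongside these lists, and their part in the result was not tested.

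Ligands of the Wnt and TGF-beta families differed in both directions. Of 42 tested Wnt genes 21 were higher and 13 lower (median 0.30). Wnt7a was at 0 in RCF and at 24.1, 24.6 and 29.3 CPM in GS_diff1, and Wnt7b at 0.05 ± 0.0514 and 71.6 ± 3.41 CPM, while Wnt4 fell from 69, 68.3 and 68.1 CPM to 2.24, 2.22 and 1.8 CPM. The secreted inhibitors Sfrp1 and Sfrp4 fell as well, to 0.565 and 2.48 CPM from 10.9 and 57.6 CPM, and the shared receptor gene Fzd2 was not called. Of 41 tested TGF-beta and BMP genes 14 were higher and 22 lower (median -0.21). Nodal, a ligand of the early embryo, was at 0 in RCF and at 3.38, 4.84 and 4.12 CPM in GS_diff1, at least 29.2-fold higher (adjusted p = 2.3e-12), and Inhba, which encodes activin A, rose from 23, 21.9 and 20.6 to 359, 363 and 372 CPM. Id2, a target of BMP signals, fell from 77 ± 1.95 to 14.9 ± 0.307 CPM, and Smad4, the common mediator, was not called. Of 18 tested Notch genes 8 were higher and 6 lower (44.4% and 33.3%, against 38.0% and 37.4% of all tested genes). Notch1 went up from 5.3 ± 0.823 to 19.4 ± 1.7 CPM and Notch3 down from 13 ± 1.43 to 6.68 ± 1.8 CPM.

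Calls among growth factor, stress and positional genes went in both directions, where 38.0% of all tested genes were higher and 37.4% lower. Of 26 tested imprinted and IGF genes 14 were higher and 10 lower. Igf1, the growth factor itself, fell from 267, 280 and 283 CPM to 27.9, 28.7 and 28.9 CPM, and the binding protein gene Igfbp6 from 102 ± 2.83 to 0.261 ± 0.0615 CPM. Igf2bp1, an RNA-binding protein of embryonic cells, went the other way, from 0.0453 ± 0.0426 to 139 ± 1.66 CPM. Of 23 tested immediate early genes 9 were higher and 11 lower, Egr2 falling from 40.2 ± 1.14 to 2.43 ± 0.591 CPM from a GS level of 28.6 ± 0.156 CPM. Of 24 genes of amino acid and unfolded protein stress 16 were higher (66.7%), 7 of them at 2-fold or more, and 5 lower (20.8%). The 1 lower at 2-fold or more was the death-associated factor Ddit3, down from 227 ± 9.07 to 47.8 ± 2.07 CPM. Of 35 Hox genes in the table only 10 could be tested, and 6 of them were lower, among them Hoxb3, at 4.15 ± 0.013 CPM in RCF and 0.0504 ± 0.0873 CPM in GS_diff1.

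Some genes changed side between GS and GS_diff1. Acta2 and Postn have been given. Il1rl1, the receptor for interleukin 33, had 10.3, 7.44 and 9.42 CPM in RCF, 3.72, 3.47 and 3.15 CPM in GS, and 94.2, 94.7 and 92.5 CPM in GS_diff1 (3.36 ± 0.08, SE, adjusted p = 5.9e-26). In the opposite sense C1s, a complement protease gene, had 364, 345 and 351 CPM in RCF, 1362, 1353 and 1360 CPM in GS, and 129, 128 and 126 CPM in GS_diff1 (-1.47 ± 0.03, SE, adjusted p = 4.12e-28). Mgp, an inhibitor of matrix calcification, the iron-binding protein gene Lcn2, the scavenger receptor gene Scara5, the growth factor gene Ereg and the amine oxidase gene Aoc3 ran the same way. Limch1, Pask and Cdh24 ran with Il1rl1.

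Other genes differed only after differentiation or had come back. The carbonic anhydrase gene Car3 had 1.9, 1.49 and 1.61 CPM in RCF, 2.62, 2.83 and 2.06 CPM in GS, and 31.7, 29.7 and 28.3 CPM in GS_diff1 (4.16 ± 0.17, SE, adjusted p = 1.75e-18). Nhp2, a ribosomal RNA-modifying protein gene, was the largest call in this class at 5.26 ± 1.67 (SE, adjusted p = 0.0186), and it rests on 1 library: GS_diff1 had 0.713, 33.1 and 0.522 CPM, and without replicate 2 the log2 fold change was 1.09 (adjusted p = 0.133). Among genes that returned, Sfrp2, a secreted Wnt inhibitor, had 9.76, 11.1 and 8.66 CPM in RCF, 461, 444 and 466 CPM in GS, and 11.5, 11 and 10.1 CPM in GS_diff1, and was not called against RCF (0.15 ± 0.08, SE, adjusted p = 0.0724), while it was called without RCF replicate 2 (0.24, adjusted p = 0.012) or without GS_diff1 replicate 3 (0.20, adjusted p = 0.0348). Il6, an inflammatory cytokine, stood at 0.958 ± 0.302, 12.3 ± 0.601 and 0.934 ± 0.195 CPM in the same order. Pla2g2a, Lum, Bmp3 and complement C3 came back from above to within 2-fold of RCF in the same way.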

How the data were processed

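RNA-seq was measured in 12 libraries of rat cells. The deposited values are read counts per gene, made by the authors from total RNA libraries. The submitters' processing notes name Bowtie 0.12.2 and the builds Rnor_6.0 and mm8, without their roles, and strand use in counting is not given in the sources used here, so overlapping and antisense genes may share reads. From the counts, edgeR 4.0.16 (R 4.3.3) fitted a robust quasi-likelihood model with TMM factors to all 12 libraries, with a term for each group and the filterByExpr filter. Tests were two-sided with Benjamini-Hochberg adjustment. On counts simulated for GS_diff1 against RCF over 14399 genes it recovered 68%, 80%, 96% and 86% of genes changed by 1.5, 2, 4 and 8-fold. The simulation changed 50 genes at each fold and left 14199 unchanged, whereas 75.4% of tested genes were called in the data. Its RCF levels were also never set below a gene's mean over all libraries. These rates therefore need not hold for this comparison. Alternatives used library totals, DESeq2 1.42.0, limma-voom (limma 3.58.1), other filters, only the groups compared, a replicate block and left-out libraries. A gene at 0 in a whole group has a bound in place of a fold, against 3 counts per library. Such bounds cover counting error only.

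Members and lists were chosen with earlier results of these data known. The 12 largest rises and falls, the 6 largest a direction in each class, and up to 4 a direction and 2 not called from each list could be named, with at least 10 CPM in a group (1 CPM for lists), alongside any member of the sarcomere, contractile and fibroblast lists. Cdk1, Top2a, Mcm5 and Gins2 fall outside this rule and were named after their values were seen. Of 1029 listed symbols, 28 did not match the table.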

Additional observations from a re-analysis of the deposited data

How the results depend on the processing

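The counts of called genes stayed within 1.5 times under library totals, DESeq2, limma-voom, other filters, only the groups compared and left-out libraries: 10481 to 11320 genes called, and 4291 to 5264 at 2-fold or more. The classes moved with their thresholds. With 1.5-fold taken as a difference already there, 1227 genes were not there in GS and 98 were opposite in GS. The same threshold widened the set of genes called in GS against RCF beyond the 3733 called at 2-fold. In this wider set 3370 were kept, 2113 met the rule of no other class, 367 had returned and 98 had crossed, so these counts have another base than those above. With the 3733 genes kept as the set and the interval required to lie within 1.5-fold, 118 had returned. Of 165 named genes followed over 13 settings, 161 kept their direction and their side of the threshold in every setting that gave them a value, and the other 4 were Nhp2, Sfrp2, Cacna1c and Myh11. The call of Nhp2 was also lost with limma-voom, with only the groups compared, with the replicate block and without RCF replicate 2 or 3, at log2 fold changes of 3.08, 5.26, 4.29, 5.08 and 5.04 in that order. Counts of the gene lists moved by more than 1.5 times in 11 of 910 values, all of small counts of lower genes. No sign was seen that the replicate numbers in the labels pair these samples, though correlations this near 0 cannot decide it. Deviations of same-numbered RCF and GS_diff1 libraries correlated at -0.000589, 0.00206 and 0.00883, the last being the highest of all pairs. Libraries 1 and 2 of RCF each correlated better with, respectively, GS_diff1 library 2 and library 1 than with their own number. With the replicate block 10767 genes were called, 4670 of them at 2-fold or more. With 3 libraries a group, changes under 1.5-fold and genes near 1 CPM are the least certain.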

Other observations

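Genes annotated as transcription factors were counted as a set, with those of the cardiac list left in, and the genes named here were picked after their values were seen. The annotation also takes in Lin28a, described above as an RNA-binding protein. Of 985 tested genes that the deposited table annotates to a transcription factor family, 202 were higher at 2-fold or more (20.5%) and 122 lower (12.4%), where the shares over all tested genes were 16.7% and 15.9%. Besides Sox17, Lin28a, Sall4, Pitx1 and Hnf4a, the genes with large rises included Sall1, a relative of Sall4, the neural and axial midline factor Zic2 at 0 in RCF and 19 ± 1.24 CPM in GS_diff1 (SD, n = 3), and Hesx1 and Lhx1 of the early embryo. The falls were led by Ebf3, from 37.8 ± 1.37 to 0.16 ± 0.0989 CPM, by Tcf21, and by Zfp423, a factor of preadipocytes, from 13.8 ± 0.51 to 0.108 ± 0.0945 CPM. Hopx, a homeodomain protein of the developing heart, fell from 20.3 ± 2.02 to 1.52 ± 0.399 CPM, and Ebf1 and Wt1 were lower as well.

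Genes of chromosome 15 stood a little above those of the other chromosomes. Over 350 chromosome 15 genes with a mean of at least 1 CPM, the median log2 fold change of GS_diff1 over RCF was 0.32, where the medians of the other 20 chromosomes ran from -0.08 to 0.08. In GS against RCF the chromosome 15 median was 0.19, and the others ran from -0.11 to 0.04. The medians of single libraries over the RCF mean were 0.29, 0.31 and 0.30 in GS_diff1. By windows of 10 Mb the medians were 0.27, 0.47, 0.37, 0.33 and 0.41 from 0 to 50 Mb and -0.14 from 50 to 60 Mb, over 32 to 75 genes each. Beyond 60 Mb the windows held 22 genes or fewer, with medians of 0.46 from 80 to 90 Mb (17 genes) and 0.29 from 100 to 110 Mb (22 genes), and the others ran from -0.21 to 0.70 over 1 to 10 genes. The chromosome also holds Gata4. The pattern was noticed in the data and its cause was not tested.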
